A study of Homo sapiens with 6 samples.

Results

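The clustered protocadherins are neighbouring genes of chromosome 5q31 that encode adhesion proteins of the cell surface. The genes studied here were the 53 protein-coding genes of the deposited table whose symbol begins with PCDHA, PCDHB or PCDHG followed by a digit or by A, B or C, out of 62710 rows, namely 15 of the alpha, 16 of the beta and 22 of the gamma cluster. RNA was sequenced from parental H526 cells, a human small cell lung cancer (SCLC) line, in 3 libraries (numbers 1 to 3) and from onvansertib-resistant H526 cells in 3 libraries (numbers 7 to 9). Onvansertib inhibits polo-like kinase 1, and the resistant line came from the parental one by culture in drug raised from 10 to 75 nM. Both lines share the cell line of origin and, drug aside, the medium, and RNA was taken from each at 3 separate times. The methods of the study do not say whether drug was present when RNA was taken. An effect of drug at that time and the resistant state therefore cannot be told apart. Whether the resistant line is a clone is not given in the sources used here. Since the resistant cells were raised as 1 line, the p-values below cover the spread between extractions and not that between independently derived lines, and drug exposure and time in culture cannot be told apart.

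A clustered protocadherin is built from a variable part, which holds the cadherin repeats that bind the same protein on another cell, and from a cytoplasmic tail. In the alpha and gamma clusters each gene has its own promoter and its own large variable exon, which is spliced to constant exons common to the whole cluster. The beta genes have no constant exons and encode short tails of their own. In neurons each cell uses a few of these promoters, chosen at random on each allele, and the mixture gives the cell a surface identity that lets its branches recognize and avoid each other. The C-type genes at the ends of the alpha and gamma clusters (*PCDHAC1*, *PCDHAC2*, *PCDHGC3*, *PCDHGC4* and *PCDHGC5*) escape this random choice. Most promoters outside the C-type carry a conserved sequence element with a core of CGCT, where the insulator protein CTCF binds and where loops to distant enhancers are anchored.

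Promoter windows of 9 of the 19 members that passed the test described below are shown first, chosen among those that hold the letters TGNCGCT, so that these can be compared between clusters. RefSeq promoters (GRCh38.p14) were found for 47 of the 53 members, and the 250 bases before each start site were searched. No entry was found for *PCDHA3*, *PCDHA13*, *PCDHB6*, *PCDHB11*, *PCDHGA12* and *PCDHGC5*. In the windows below the capitals mark the letters TGNCGCT, in which N is any base. This pattern was written down after the members' sequences had been read, and every match to it also holds the core CGCT.
*PCDHA2* (chr5:140794772-140794816, plus strand): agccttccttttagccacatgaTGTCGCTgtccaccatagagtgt
*PCDHA4* (chr5:140806970-140807014, plus strand): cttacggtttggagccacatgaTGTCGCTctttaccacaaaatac
*PCDHA10* (chr5:140855832-140855876, plus strand): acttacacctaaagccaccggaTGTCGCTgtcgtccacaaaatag
*PCDHB2* (chr5:141094535-141094579, plus strand): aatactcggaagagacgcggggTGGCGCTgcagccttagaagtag
*PCDHB3* (chr5:141100384-141100428, plus strand): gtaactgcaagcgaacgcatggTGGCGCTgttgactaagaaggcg
*PCDHB7* (chr5:141172557-141172601, plus strand): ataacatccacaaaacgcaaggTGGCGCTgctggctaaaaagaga
*PCDHB16* (chr5:141182301-141182345, plus strand): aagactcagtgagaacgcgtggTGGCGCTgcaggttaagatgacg
*PCDHB9* (chr5:141187065-141187109, plus strand): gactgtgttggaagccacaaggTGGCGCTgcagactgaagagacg
*PCDHGC3* (chr5:141475871-141475915, plus strand): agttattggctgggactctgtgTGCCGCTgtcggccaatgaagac
The alpha windows read TGTCGCT and the beta windows TGGCGCT at this place, while the window of *PCDHGC3* reads TGCCGCT. A second match in *PCDHGC3*, reading TGGCGCT, lay farther from its start site. On the strand of the gene, TGNCGCT was present in 29 of the 47 members (61.7%), and in 5.33% of the promoters of all 27305 genes with an entry. Counting both strands, it was present in 63.8% of members and in 9.99% of all genes. Because TGNCGCT was written from the members' own sequences, its higher share in them is no test of enrichment. The shorter core CGCT was present on the gene's strand in 45 of 47 members and in 51.9% of all genes. TGNCGCT was found in 10 of 11 alpha genes outside the C-type, 12 of 14 beta genes, 3 of 11 gamma A genes, 3 of 7 gamma B genes and 1 of 4 C-type genes. It was held by 13 of the 17 members with an entry that were lower in resistant cells, by the 1 that was higher, by 2 of 8 that did not pass the test and by 13 of 21 that were not tested. The lower members with an entry but without it were *PCDHB8*, *PCDHGA1*, *PCDHGB1* and *PCDHGB2*, so that none of the 3 gamma members that were lower held it. The 2 members that held it and did not pass were the beta genes *PCDHB4* and *PCDHB13*. Call and cluster are not separated in these counts, and a link between the letters and the fall was not tested. A match is a description of letters and was not tested as a binding site.

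The constant exons are shown next, since reads in them belong to no single gene. The first and second constant exons are coding and have 59 and 89 bases in both clusters.
alpha constant exon 1 (chr5:140978949-140979007, plus strand): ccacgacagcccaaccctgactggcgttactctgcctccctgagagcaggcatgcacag
alpha constant exon 2 (chr5:140982475-140982563, plus strand): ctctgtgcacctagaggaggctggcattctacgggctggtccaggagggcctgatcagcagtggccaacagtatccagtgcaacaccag
gamma constant exon 1 (chr5:141494807-141494865, plus strand): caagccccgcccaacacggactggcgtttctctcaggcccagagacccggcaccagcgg
gamma constant exon 2 (chr5:141505393-141505481, plus strand): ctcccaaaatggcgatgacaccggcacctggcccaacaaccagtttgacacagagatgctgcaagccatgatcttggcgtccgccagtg
Each alpha sequence was present in the Gencode v44 transcripts of all 15 alpha members, and each gamma sequence in those of all 22 gamma members. Between the clusters 39 of 59 positions were identical in the first and 29 of 89 in the second exon. With the third constant exon included, members shared between 19.2% and 56.6% of their annotated exon bases with another member in the alpha cluster and between 27.5% and 64.4% in the gamma cluster. The lowest alpha share, in *PCDHA10*, was taken over 15664 annotated exon bases, while its spliced coding transcript has 5409. For such genes these shares understate the sharing within the spliced transcript. A read inside a constant exon fits every gene of its cluster, so the quantification had to divide such reads between genes. For alpha and gamma genes the sum over the cluster is therefore given beside the single values. Beta genes shared no exon, although up to 25.6% of the 100-base stretches of a beta gene, in *PCDHB8*, occurred in another member.

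The deposited values are gene counts normalized by the authors with DESeq2, and a value near 1 corresponds to about 1 read. The depth estimated from that step was between 25743101 and 28511402 reads in parental and between 22382873 and 23260380 in resistant libraries, so the resistant libraries were the shallower ones. On the deposited scale 3 reads, below which a gene listed at 0 may still lie, came to 2.83 for the parental and 3.16 for the resistant group, a limit for counting error alone. *POU2F3*, the factor that defines the tuft cell-like subtype of SCLC, lay between 24511 and 26809 in parental and between 26844 and 27873 in resistant libraries, and *NEUROD1* reached at most 5.49. Of the 5 tuft cell markers 2 were lower and 2 higher in resistant cells, with sums between 68464 and 69268 in parental and between 61873 and 63325 in resistant libraries. All 4 neuroendocrine markers were lower, from sums between 11191 and 12564 to sums between 4289 and 4991. Of 3 neuron markers, *SNAP25* and *MAP2* were lower and *RBFOX3* was near 0 in every library, with sums between 759.6 and 931 in parental and between 209 and 260.4 in resistant libraries. *COL1A1*, *COL1A2* and *VWF* were higher, while the other fibroblast, endothelial and leukocyte markers *DCN*, *PECAM1*, *PTPRC* and *CD3E* were at or near 0. Sums of the fibroblast markers lay between 123 and 177 in parental and between 365 and 582 in resistant libraries, and sums of the endothelial markers between 244 and 339 and between 452 and 491. The part of these other differences and of depth in the protocadherin results was not tested. In bulk RNA, fewer cells that express a gene and less RNA per cell cannot be told apart.

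Members of all 3 clusters were lower in resistant than in parental cells, and *PCDHGC3* was the 1 member that passed the test as higher. Of the 53 members, 29 averaged 10 or more across all libraries and were tested with limma on log2(value + 1). At a Benjamini-Hochberg adjusted p under 0.05 over all genes tested, 18 members were lower, 1 was higher and 10 did not pass. Over all 16347 genes tested 37.7% passed by the same rule, 19.8% as lower and 17.8% as higher. The median log2 fold change (resistant minus parental) was -0.99 over the 29 members and -0.00086 over all genes tested. Parental and resistant values stood apart in 20 of the 29 members tested, and in 49.9% of all genes tested. For such a gene an exact two-sided permutation test of 3 against 3 libraries can go no lower than p = 0.10. Of the 29 members, 3 passed the filter with 1 group mean under 10, namely *PCDHGB1*, *PCDHGA6* and *PCDHGB7*. Counting all 53 members, tested or not, the mean was lower in resistant cells for 42 and higher for 11, and the log2 fold change was below 0 in 50.1% of all genes tested.

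**Figure D1:**
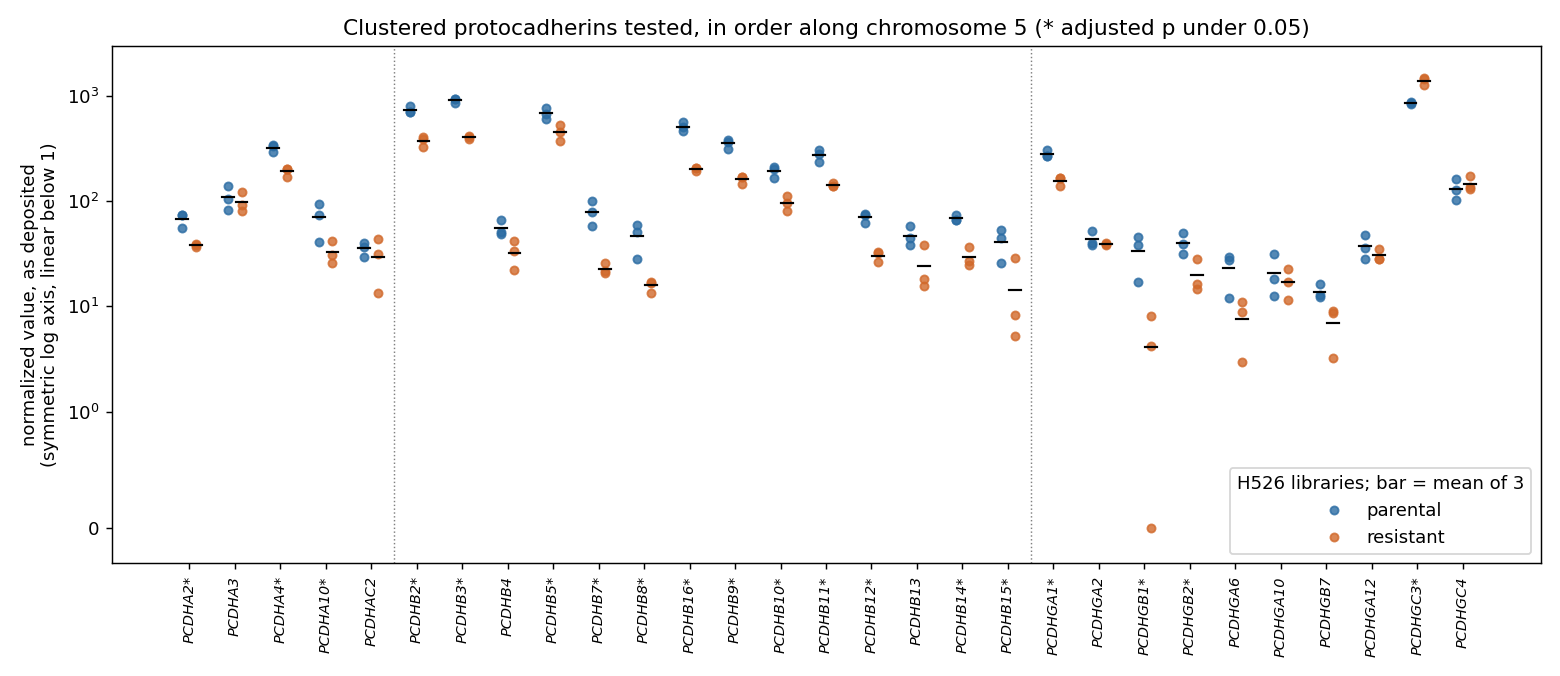
DESeq2-normalized values (vertical axis, symmetric log scale, linear below 1) of the 29 members tested, in the order of the genes on chromosome 5, in 3 parental (blue) and 3 resistant (orange) libraries, with a black bar at each group mean. Dotted lines separate the alpha, beta and gamma clusters, a star marks an adjusted p under 0.05, and *PCDHGC3* is the only starred gene whose resistant points lie above the parental ones.

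**Figure D2:**
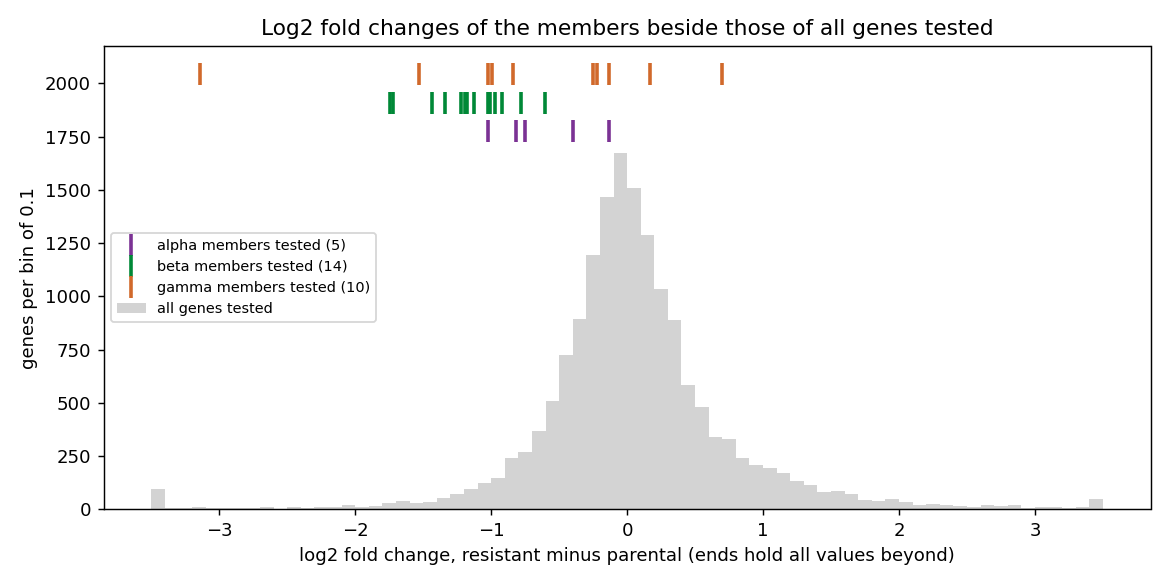
Log2 fold changes, resistant minus parental (horizontal axis), of all 16347 genes tested as grey bars (genes per bin of 0.1, vertical axis) and of the members tested as coloured ticks, 5 alpha, 14 beta and 10 gamma. All 14 beta ticks lie between -1.75 and -0.60, and 2 gamma ticks, *PCDHGC3* and *PCDHGC4*, lie above 0.

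The beta cluster had the largest relative fall of the 3 sums. Its 16 genes summed to 4235, 3839 and 4226 in parental libraries 1, 2 and 3 and to 1976, 2040.2 and 2023 in resistant libraries 7, 8 and 9. The sums did not overlap, and the resistant mean (2013 ± 33.1, SD, n = 3) was 49.1% of the parental one (4100.2 ± 226, SD, n = 3). Of 14 beta genes tested, 12 were lower at an adjusted p under 0.05, 0 were higher, and all 14 had a log2 fold change below 0, with a median of -1.15. The mean was lower in resistant cells for all 16 genes, including *PCDHB1* and *PCDHB6*, which averaged under 10 across all libraries and were not tested.

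Levels between genes are compared per kb of transcript. By that measure *PCDHB3* held 24.8% ± 0.0223 (SD, n = 3) of the cluster in parental and 22.2% ± 1.35 in resistant cells. It was the highest beta gene in the parental libraries. *PCDHB3* (ENSG00000113205, chromosome 5 from 141100473 to 141103827 of GRCh38) was at 945, 862 and 948 in the parental and at 421, 387 and 407 in the resistant libraries. Every resistant library was below every parental one, and the log2 fold change was -1.18 (standard error 0.09 in limma, adjusted p = 1.0e-05). Its neighbour *PCDHB2* (ENSG00000112852, chromosome 5 from 141094606 to 141098703) had values of 800.0, 699 and 704 in parental and of 406, 331 and 389 in resistant cells, again without overlap (log2 fold change -0.97, standard error 0.11, adjusted p = 0.000129 by limma). The smallest fall among the leading beta genes was that of *PCDHB5* (ENSG00000113209, chromosome 5 from 141135206 to 141138615), from 681, 606 and 763 to 371, 527 and 458, and the log2 fold change was -0.60 (standard error 0.14 in limma, adjusted p = 0.00748). Its share of the cluster per kb was 18.1% ± 1.305 in parental and 24.3% ± 3.76 in resistant cells (SD, n = 3), and the 2 groups of shares did not overlap. *PCDHB5* was thus the highest beta gene per kb in resistant libraries 8 and 9. *PCDHB16* (ENSG00000272674, chromosome 5 from 141182387 to 141186226) fell further, from 570.0, 505 and 464 to 205, 208 and 192, a log2 fold change of -1.34 (standard error 0.12 in limma, adjusted p = 2.8e-05). These 4 genes together with 3 or 4 others made up 90% of the cluster per kb in every library.

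In *PCDHB9*, *PCDHB10*, *PCDHB11*, *PCDHB12* and *PCDHB14* the resistant mean lay between 42.7% and 52.2% of the parental one. *PCDHB9* had values of 368, 314 and 381 in parental and of 171, 168 and 146 in resistant libraries, *PCDHB10* of 168, 214 and 200.5 and of 81.4, 95.8 and 111, and *PCDHB11* of 309, 235 and 284 and of 151, 140.4 and 141. In these 3 genes no resistant library reached the lowest parental one. *PCDHB12* was at 75.3, 62.4 and 73.3 and then at 31.8, 26.2 and 32.9, and *PCDHB14* at 66.7, 67.02 and 73.3 and then at 36.9, 24.5 and 26.96, also without overlap. The adjusted p by limma was between 0.00019, for *PCDHB9*, and 0.00444, for *PCDHB14*, in these 5 genes.

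Of the other beta genes tested, *PCDHB7* fell to 28.8% of its parental mean. It was at 101, 58.3 and 78.6 in parental and at 26.1, 20.8 and 21.6 in resistant libraries, a log2 fold change of -1.72 (standard error 0.28 in limma, adjusted p = 0.00104). *PCDHB8*, the beta gene with the most sequence in common with other members, was at 28.5, 51.4 and 58.9 and at 16.7, 13.5 and 17.2 (adjusted p = 0.00957 by limma). In both genes each resistant library was below each parental one. *PCDHB15* was at 25.9, 53.4 and 44.2 and at 5.22, 8.33 and 29.1, where resistant library 9 lay within the parental range, and the log2 fold change was -1.75 (standard error 0.56 in limma, adjusted p = 0.0334). Its call was lost without parental library 2 or 3 and without resistant library 7 or 8 (adjusted p between 0.0944 and 0.103 by limma). The 2 beta genes tested that did not pass were *PCDHB4*, at 48.5, 50.9 and 66.6 and at 33.5, 42.1 and 22.01 (adjusted p = 0.0684 by limma, groups not overlapping), and *PCDHB13*, at 38.3, 44.7 and 58.01 and at 15.6, 38.5 and 18.3 (adjusted p = 0.0548 by limma). In *PCDHB13*, resistant library 8 alone was inside the parental range, and without it the adjusted p was 0.0156 by limma.

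Alpha proteins need a beta or gamma partner to reach the cell surface, with *PCDHAC2* as the known exception. In the alpha cluster the 15 genes summed to 608, 591 and 708 in parental and to 396, 458 and 444 in resistant libraries, without overlap, so that the resistant mean (433 ± 32.7, SD, n = 3) was 68.1% of the parental mean (636 ± 63.4, SD, n = 3). Only 5 alpha genes were tested, and 3 of them, *PCDHA4*, *PCDHA2* and *PCDHA10*, were lower while *PCDHA3* and *PCDHAC2* did not pass. *PCDHA4* (ENSG00000204967, chromosome 5 from 140807037 to 141012347) held 51.5% ± 4.81 of the cluster per kb in parental and 44.8% ± 1.08 in resistant cells (SD, n = 3). Its values were 344, 291 and 337 in parental and 172, 204 and 202 in resistant libraries, and the log2 fold change was -0.75 (standard error 0.14 in limma, adjusted p = 0.00197). No resistant library reached the lowest parental one.

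The other alpha genes in use were weaker and less even. *PCDHA2* was at 55.3, 74.7 and 74.7 in parental and at 36.5, 38.5 and 38.8 in resistant libraries (log2 fold change -0.82, standard error 0.24, adjusted p = 0.0228 by limma). *PCDHA10* was at 41.1, 74.7 and 94.7 and at 30.7, 25.8 and 41.6 (log2 fold change -1.02, standard error 0.34, adjusted p = 0.0388 by limma), where the highest resistant library was just above the lowest parental one. The call of *PCDHA2* was lost without parental library 2 or 3 and without resistant library 7 or 8 (adjusted p between 0.0542 and 0.0814 by limma), and that of *PCDHA10* without the same libraries (adjusted p between 0.0861 and 0.149). With all libraries but no filter on the mean, the call of *PCDHA2* was lost too (adjusted p = 0.0517 by limma). *PCDHA3*, the second gene of the cluster per kb, had overlapping values of 105, 82.4 and 139 and of 92.00, 123 and 80.8 (log2 fold change -0.13, standard error 0.25, adjusted p = 0.712 by limma). The C-type gene *PCDHAC2*, which spaces the axons of serotonergic neurons, overlapped as well, with 36.8, 40.3 and 29.5 in parental and 31.2, 13.3 and 44.03 in resistant libraries (adjusted p = 0.486 by limma). The 10 alpha genes not tested had group means of at most 10.4, and in 7 of the 13 alpha genes outside the C-type the mean was higher in resistant cells. One of these, *PCDHA1*, had a mean of 4.24 ± 1.28 in parental and of 7.31 ± 1.19 (SD, n = 3) in resistant cells without overlap, a difference of a few reads that was not tested with limma.

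**Figure D3:**
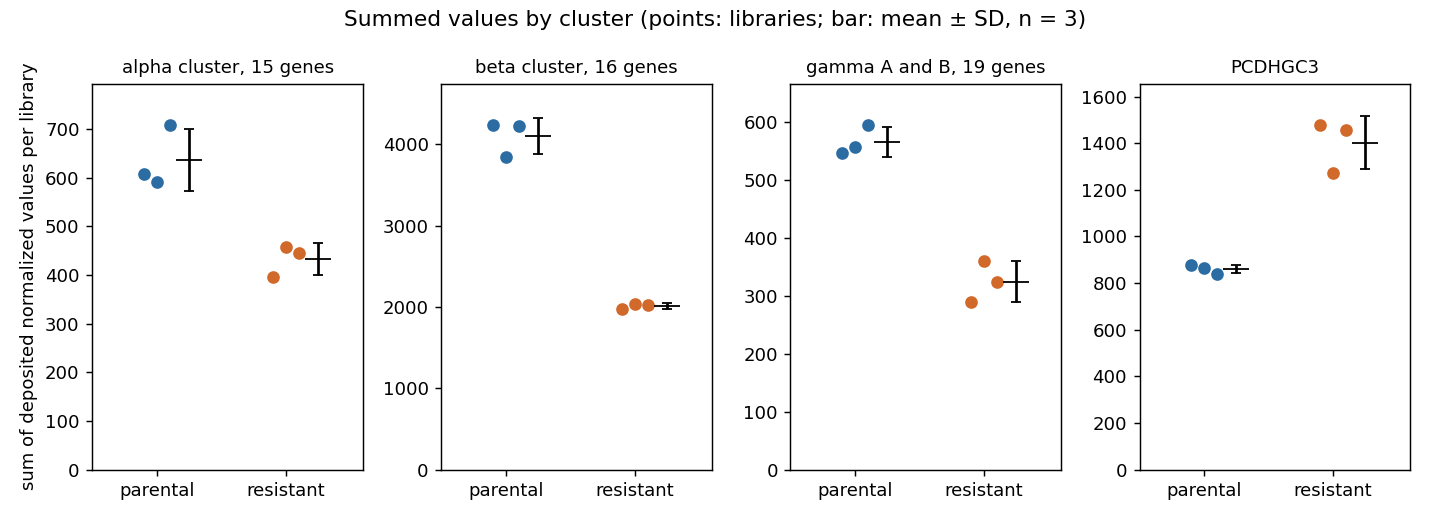
Sum of DESeq2-normalized values per library (vertical axis, from 0) of the 15 alpha genes, the 16 beta genes and the 19 gamma A and gamma B genes, and the value of *PCDHGC3* alone, in parental and resistant libraries (points), with mean and SD (bars, n = 3). The resistant points lie below the parental points in the first 3 panels and above them for *PCDHGC3*.

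The gamma cluster held both directions. Its 22 genes summed to 1557, 1524 and 1602 in parental and to 1944, 1772 and 1913 in resistant libraries, so that the resistant mean was 120.2% of the parental one. Without *PCDHGC3* the sum of the other 21 genes was 680.3, 660.5 and 762 in parental and 466, 499 and 457 in resistant libraries, or 67.6% of the parental mean. The 19 genes of the gamma A and gamma B series alone summed to 547, 557 and 596 and to 289.9, 360.4 and 324, or 57.3%. None of these 3 sums overlapped between the groups. Because the constant exons are common to all 22 genes, reads could have been assigned to *PCDHGC3* in place of a gamma A or B gene or the reverse, and how such reads were divided was not tested.

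*PCDHGC3* (ENSG00000240184, chromosome 5 from 141475947 to 141512977), a C-type gene that is also active outside neurons, was at 877, 864 and 841 in parental libraries 1, 2 and 3 and at 1478, 1273 and 1455 in resistant libraries 7, 8 and 9. All resistant libraries were above all parental ones, rising from a mean of 860.5 ± 18.5 to 1402 ± 112 (SD, n = 3 each), and the log2 fold change was 0.70 (standard error 0.08 in limma, adjusted p = 0.000148). It made up 55.2% ± 2.33 of the gamma cluster per kb in parental cells and 74.7% ± 2.44 in resistant cells (SD, n = 3). *PCDHGA1* (ENSG00000204956, chromosome 5 from 141330514 to 141512975), at the other end of the cluster and second in it per kb, went the other way, from 308, 270.0 and 268 to 139, 167 and 166, and the log2 fold change was -0.84 (standard error 0.14 in limma, adjusted p = 0.00133). Its share per kb was 18.1% ± 1.57 in parental and 8.41% ± 1.16 in resistant cells. The number of genes that made up 90% of the cluster per kb was 6 or 7 in the parental and 3 or 4 in the resistant libraries.

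*PCDHGC4*, a C-type gene needed for the survival of some neurons, did not pass the test. Its values overlapped, with 129, 103 and 163 in parental and 174, 136 and 129.996 in resistant libraries (log2 fold change 0.17, standard error 0.21, adjusted p = 0.568 by limma). *PCDHGC5* and the alpha gene *PCDHAC1* had means under 10 and were not tested. Of the 5 C-type genes 3 were thus tested, with 1 higher and 0 lower, while of the 26 other members tested 18 were lower and 0 higher. The difference between these sets was not tested.

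Among the remaining gamma genes *PCDHGB1* and *PCDHGB2* were lower. *PCDHGB1* was at 17.2, 38.1 and 45.8 in parental and at 0, 8.18 and 4.23 in resistant libraries (log2 fold change -3.15, standard error 0.77, adjusted p = 0.0097 by limma). With resistant values between 0 and 8.18, the size of this fold change depends on the pseudocount, and it was -4.35 with a pseudocount of 0.1 and -1.61 with one of 10. *PCDHGB2* was at 39.2, 31.7 and 50.2 and at 16.4, 28.4 and 14.7 without overlap (log2 fold change -1.02, standard error 0.35, adjusted p = 0.043 by limma), and its call was lost without parental library 1 or 3 and without resistant library 7 or 9 (adjusted p between 0.089 and 0.146 by limma). *PCDHGA6* was close to the threshold, at 27.5, 11.98 and 29.8 and at 8.90, 2.96 and 11.02 (adjusted p = 0.0504 by limma), and it passed without parental library 2 (adjusted p = 0.0282 by limma) and without resistant library 9 (adjusted p = 0.0428). *PCDHGB7* (log2 fold change -0.99), *PCDHGA2* (-0.14), *PCDHGA10* (-0.22) and *PCDHGA12* (-0.25) did not pass. Of the 12 gamma genes not tested, *PCDHGA3* had the highest parental mean, 14.99 ± 4.19 against 4.13 ± 0.586 (SD, n = 3) in resistant cells. *PCDHGB5* was at or under 3 reads in all 6 libraries.

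**Figure D4:**
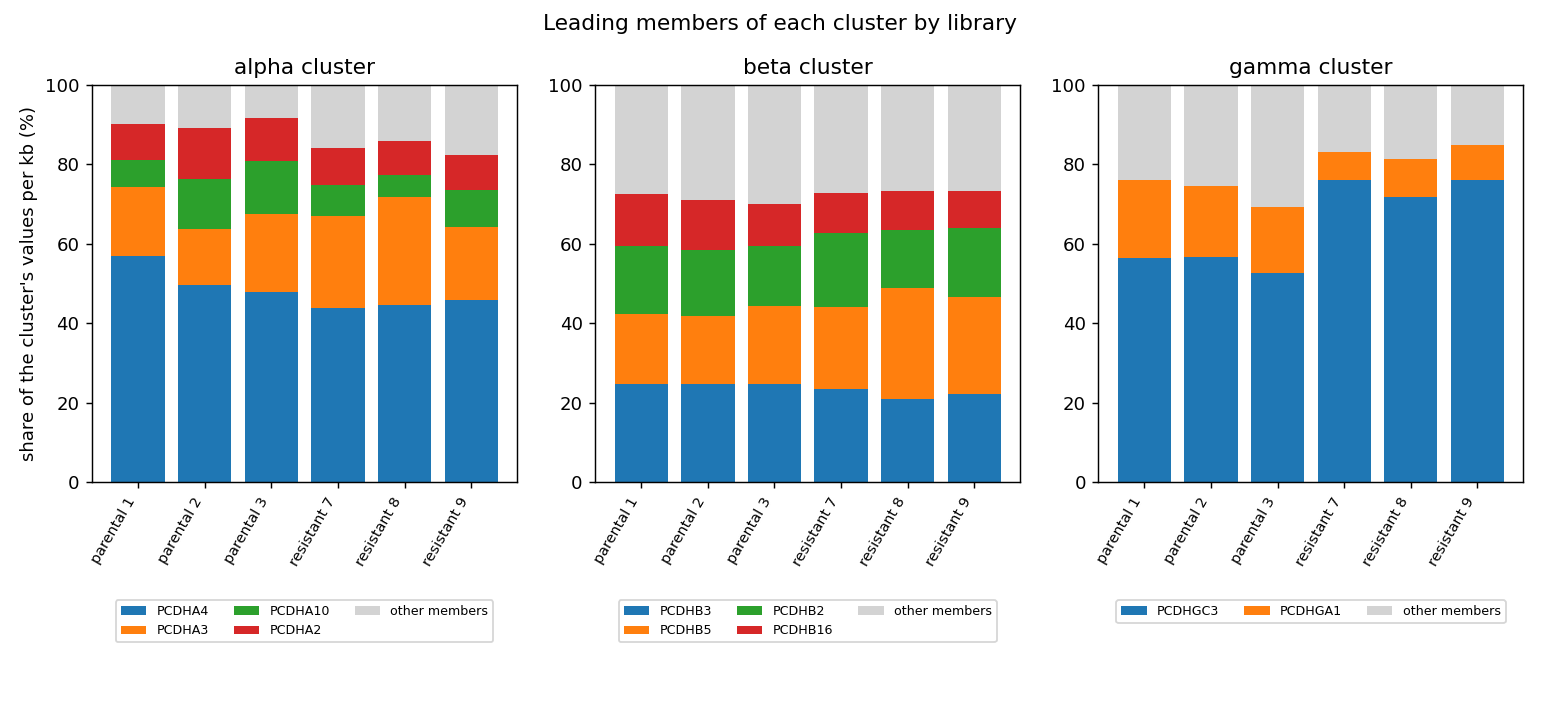
Share of each cluster's values per kb of transcript (vertical axis, %) held by its leading members, those with at least 10% in a group, in each of the 6 libraries (stacked bars, other members in grey). The blue part of the gamma panel, *PCDHGC3*, spans 52.6% to 56.8% of the cluster in parental libraries and 71.9% to 76.2% in resistant ones.

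The same comparison was made for the genes around the clusters, to see whether their values moved too. Of the 40 tested genes nearest to the clusters, 20 on each side and outside the protocadherin family, 8 were lower, 3 higher and 29 did not pass, with a median log2 fold change of -0.04 and a range from -0.59 to 0.66. By the same rule 19.8% of all genes tested were lower and 17.8% higher. The 11 calls among the neighbours became 5 without parental library 3 and 7 without resistant library 8. The 2 sides were not alike. The 20 genes before *PCDHA1* spanned 0.58 Mb, with 6 lower, 1 higher, 14 log2 fold changes below 0 and a median of -0.13. The 20 genes after the gamma cluster spanned 6.0 Mb, with 2 lower, 2 higher, 10 log2 fold changes below 0 and a median of 0.03. The difference between the sides was not tested. *ZMAT2*, the nearest gene before *PCDHA1*, was at 3019, 2471 and 2692 in parental and at 2281, 2161 and 2058 in resistant libraries (log2 fold change -0.33, adjusted p = 0.0117 by limma). *NDUFA2*, a subunit of respiratory complex I, had the smallest p among the neighbours (log2 fold change -0.44, standard error 0.07, adjusted p = 0.000942 by limma), followed by the readthrough gene *ANKHD1-EIF4EBP3* (log2 fold change -0.41, adjusted p = 0.00571 by limma) and by the chaperone subunit *PFDN1* (log2 fold change 0.37, adjusted p = 0.00804 by limma). *DIAPH1*, the nearest gene after the gamma cluster and an organizer of actin, was at 14109, 12654 and 12679 and at 15270.1, 13937 and 14938 (log2 fold change 0.16, adjusted p = 0.0751 by limma). *ZMAT2* and *DIAPH1* were named for their position after their values had been seen. Between the beta and gamma clusters, *TAF7*, a subunit of the general transcription factor TFIID, was at 4749, 4194 and 4575 and at 3582, 3304 and 3495 (log2 fold change -0.38, standard error 0.07, adjusted p = 0.00173 by limma), and *SLC25A2* was listed at 0 in all 6 libraries. Over the 683 tested genes of chromosome 5 that were not members the median was -0.04, with 162 lower and 89 higher.

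**Figure D5:**
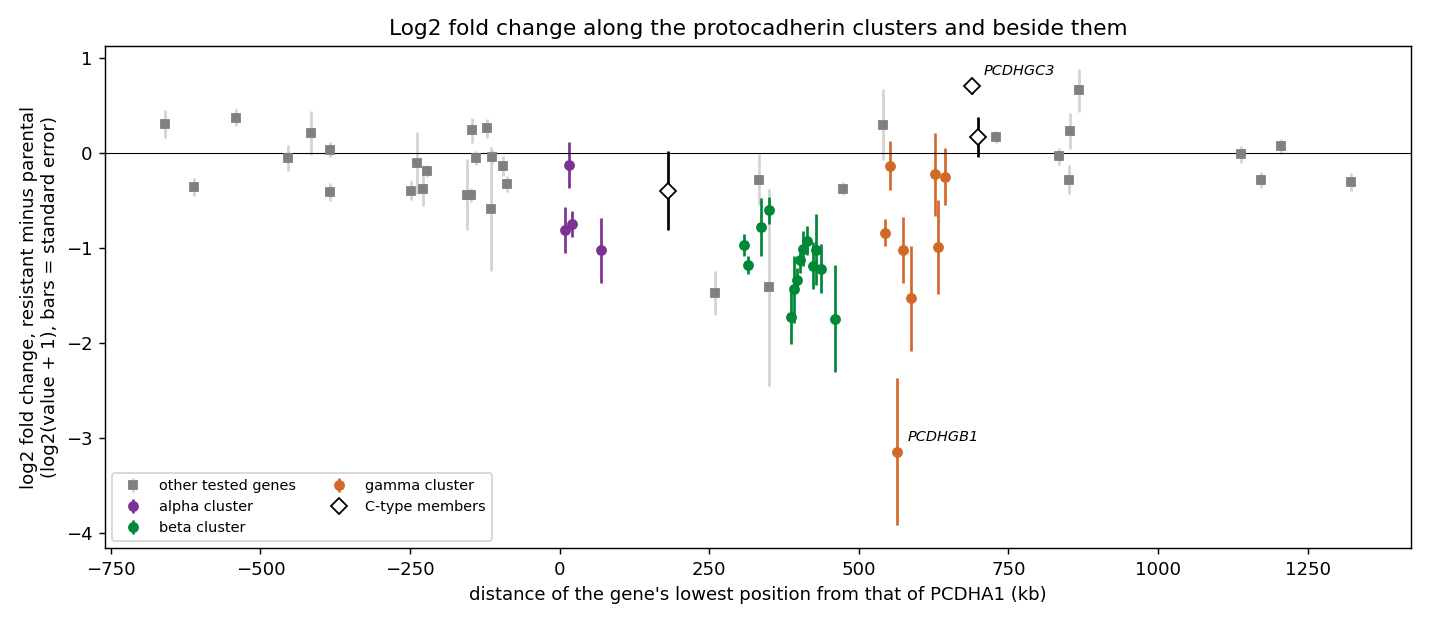
Log2 fold change, resistant minus parental (vertical axis, bars show the standard error), of tested genes by the distance of their lowest position from that of *PCDHA1* (horizontal axis, kb), for alpha, beta and gamma members, C-type members (open diamonds) and other tested genes within the plotted range (grey). All 14 beta genes lie below 0, *PCDHGC3* at the far end of the clusters lies at 0.70, and *DIAPH1* just beyond it lies at 0.16.

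A noncoding gene at the start of the beta cluster was lower as well. *PCDHB1-AS1*, a long noncoding RNA gene at chromosome 5 from 141046260 to 141096402 on the minus strand that overlaps *PCDHB1* and the start of *PCDHB2*, was at 151, 124 and 139 in parental and at 62.7, 37.5 and 49.6 in resistant libraries. The groups did not overlap (log2 fold change -1.48, standard error 0.23, adjusted p = 0.000786 by limma). Whether reads were counted by strand is not given in the sources used here, so reads of this gene and of *PCDHB2* cannot be told apart where they overlap. *PCDHB1-AS1* was named after its values were seen. Other genes within the clusters, with symbols not beginning with PCDH, were also tested, and of these only *TAF7* passed. Those that did not pass were ENSG00000272108 (log2 fold change -0.28, adjusted p = 0.438 by limma), ENSG00000280029 (-1.42, adjusted p = 0.314) and ENSG00000272070 (0.30, adjusted p = 0.566).

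Genes known to act on these promoters, or to act with the proteins, were read in the same fit as lists written with earlier results of these data known. Over these lists, 19 calls became 12 without parental library 3. Over all genes tested 19.8% passed as lower and 17.8% as higher, and the counts for every list below stand beside these shares. Of 15 genes of CTCF and cohesin, the ring that holds chromatin loops, all were tested, with 1 higher, 1 lower and a median log2 fold change of 0.01. *CTCF* was at 3597, 2712 and 3011 in parental and at 2808, 2615 and 2675 in resistant libraries, which overlapped (log2 fold change -0.19, standard error 0.10, adjusted p = 0.143 by limma), and it passed as lower without parental library 2 (adjusted p = 0.0349). The cohesin subunit *RAD21* had a log2 fold change of 0.04 (standard error 0.06). The alternative cohesin subunits *STAG1* and *STAG2* had log2 fold changes of -0.23 and 0.28 (adjusted p = 0.0286 and 0.0219 by limma). The call of *STAG1* was lost without parental library 1 or 3 or resistant library 7 or 9 (adjusted p between 0.0665 and 0.0949 by limma), and that of *STAG2* without parental library 2 or 3 or resistant library 7 or 8 (adjusted p between 0.053 and 0.0671).

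Of 22 genes of DNA methylation and silencing, 5 were lower, 3 were higher and 14 did not pass, with a median of -0.11. By the same rule 37.7% of all genes tested passed, so these counts are not read as a result about the list. *SMCHD1*, which represses the protocadherin clusters, had a log2 fold change of 0.20 (standard error 0.09 in limma, adjusted p = 0.104). *DNMT3B*, which methylates their promoters in the embryo, had a log2 fold change of 0.30 (standard error 0.13 in limma, adjusted p = 0.103). *WIZ*, a zinc finger partner of the H3K9 methyltransferases, and *SETDB1*, another H3K9 methyltransferase, had log2 fold changes of -0.15 and -0.03 (adjusted p = 0.116 and 0.75 by limma). None of these 4 genes passed, although *SMCHD1* passed as higher without resistant library 9 (adjusted p = 0.0298 by limma). The smallest p of this list belonged to *EZH2*, the H3K27 methyltransferase, which fell from 5674 ± 311 to 3406 ± 224 (SD, n = 3, log2 fold change -0.74, adjusted p = 3.7e-05 by limma). *UHRF1*, which guides maintenance methylation, and *CBX5*, the heterochromatin protein HP1 alpha, fell with log2 fold changes of -0.35 and -0.38 (adjusted p = 0.001 and 0.00263 by limma).

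Of 11 protocadherins outside the clusters 5 were tested, and *PCDH1*, which lies on the same arm of chromosome 5 beyond the gamma cluster, was higher, at 935, 1104 and 940.2 in parental and at 1279, 1345 and 1663 in resistant libraries (log2 fold change 0.52, standard error 0.11, adjusted p = 0.00491 by limma). *PCDH7*, *PCDH8*, *PCDH9* and *PCDH19* did not pass, and 0 of the 5 were lower. Whether they differ from the clustered genes was not tested.

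Among proteins that act with the cytoplasmic tails, 1 of 9 genes of the actin-regulating WAVE complex was lower (*CYFIP2*, log2 fold change -0.29, adjusted p = 0.0104 by limma) and 1 was higher (*CYFIP1*, log2 fold change 0.20, adjusted p = 0.0298 by limma). The call of *CYFIP1* was lost without any 1 library other than parental library 1 (adjusted p between 0.0522 and 0.0966 by limma). Of 4 kinases 3 were tested. *PTK2B*, the focal adhesion kinase PYK2 that alpha and gamma tails hold back, rose from 152, 211 and 199 to 422, 366 and 393 (log2 fold change 1.08, standard error 0.15, adjusted p = 0.000373 by limma). *FYN*, a kinase of the SRC family, fell from 1013, 1112 and 996 to 732, 593 and 612 (log2 fold change -0.69, standard error 0.10, adjusted p = 0.000534 by limma). The proteases that release the tails from the membrane comprise *ADAM10* and the gamma-secretase subunits. Of these 6 genes 2 were lower, *PSENEN* and *APH1A* (log2 fold changes -0.83 and -0.24, adjusted p = 0.000356 and 0.0181 by limma). The call of *APH1A* was lost without parental library 1 or 3 or resistant library 8 (adjusted p between 0.052 and 0.0694 by limma). *NCSTN*, which was higher, was named after its values were seen (log2 fold change 0.20, adjusted p = 0.0353 by limma).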

How the data were processed

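RNA-seq was done on 3 parental and 3 onvansertib-resistant H526 libraries. Per the submitters' processing notes and the methods of the study, the authors trimmed reads with Trimmomatic 0.38, aligned them to GRCh38 with STAR, estimated gene counts with RSEM 1.3.1 and normalized them with DESeq2 1.30.0. The deposited values are this normalized signal per gene, and they hold fractions of a read because reads that fit several genes are divided. Between 49.7% and 62.0% of low values were whole reads at a tolerance of 0.05 read, so counts were not recovered and a count test was not run. After 47 duplicate rows of the Y chromosome's pseudoautosomal part were left out, 62710 rows remained, of which 62639 were given a symbol from Gencode v44.

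The 16347 genes that averaged 10 or more across all libraries were fitted with limma 3.58.1 in R 4.3.3 on log2(value + 1). The variance prior followed the intensity, and p-values were adjusted by Benjamini-Hochberg at a threshold of 0.05. Fold changes on this scale understate those of low genes. The fit was tested on simulated data. Sums and shares per kb used the longest protein-coding Gencode transcript, spliced to the constant exons in alpha and gamma genes, and have no test. Python 3.11.15, pandas 2.3.3, numpy 2.4.6 and matplotlib 3.10.9 were used otherwise. Members past the threshold were named with every library, as were members with at least 10% of their cluster per kb; of the other lists, fixed genes and at most 3 genes of smallest p were named. The members and lists were chosen with earlier results of these data known. The alternatives were other pseudocounts, filters and scalings, no trend, and leaving out each library in turn. Some genes of the marker and partner lists are not reported here.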

Additional observations from a re-analysis of the deposited data

How the results depend on the processing

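Of the 19 members called, 15 kept the call under every alternative fit run on them and 4 lost it under at least 1. These were *PCDHA2* (lost in 5 of 13 fits), *PCDHA10* (6 of 13), *PCDHB15* (6 of 12) and *PCDHGB2* (5 of 12). The losses were thus not limited to the fits with 1 library left out that are named above. Each member tested had 13 such fits, or 12 where a minimum mean of 50 removed it, except *PCDHGB7*. That gene had 9, since the filter on the mean removed it from the others. Of the 10 not called, 3 gained it under at least 1 (*PCDHB4*, *PCDHB13* and *PCDHGA6*). The 19 members called kept their direction in these fits. Among the named genes not called, the log2 fold change took either sign with 1 library left out for *PCDHA3* (-0.313 to 0.0628, above 0 without parental library 3 or resistant library 9), *PCDHAC2* (-0.754 to 0.0712, above 0 without resistant library 8), *PCDHGA10* (-0.519 to 0.113, above 0 without parental library 1 or resistant library 8) and *SETDB1* (-0.0723 to 0.00326, above 0 without resistant library 8), and it was 0.00988 for *SETDB1* with quantile normalization. The number of members called was between 14, with a minimum mean of 50 and so fewer genes tested, and 22, with quantile normalization, and between 15 and 19 with 1 library left out. Over all genes 6161 calls became 5072 without the trend and between 4784 and 5618 with 1 library left out. Calls among the neighbour genes went from 11 to 5 without the trend and were between 5 and 11 with 1 library left out. Calls in the regulator and partner lists went from 19 to 11 without the trend and were between 12 and 18 with 1 library left out; the cause was not tested. The log2 ratio of the alpha sums went from -0.55 to -0.37 without *PCDHA4*, and that of the gamma sums from 0.26 to -0.56 without *PCDHGC3*. This change of sign is what removing the 1 gamma gene called higher brings. With 1 library left out the log2 ratios were between -0.61 and -0.47 for alpha, between -1.07 and -1.002 for beta and between 0.24 and 0.30 for gamma. No paired analysis was possible because the labels do not tell which parental and which resistant extraction, if any, belong together: the libraries carry the numbers 1 to 3 and 7 to 9. With 3 libraries a group, and values of a few reads in many alpha and gamma genes, a difference in the 24 members not tested may not have been detectable at this depth.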
